A study of Homo sapiens with 6 samples.

Results

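The 9 genes described here are induced by interferons in many human cell types, and they were examined among the 31142 genes measured by RNA sequencing in cells labelled SKM-1, a human leukemia line derived from a myelodysplastic syndrome and known for monocytic features. They are the interferon-induced transmembrane genes IFITM1, IFITM2 and IFITM3, the effector genes ISG15, IFI6 and IFI27, and the transcription factor genes STAT2, IRF9 and IRF7. They were chosen by gene symbol, and each symbol was carried by 1 gene identifier in the table. The 3 S34F samples were labelled as SKM-1 cells with S34F mutant U2AF1, and the 3 WT samples as SKM-1 cells with wild-type U2AF1, with 1 library per sample. U2AF1 encodes a splicing factor that helps to recognize the end of introns. According to the methods, FLAG-tagged U2AF1 was carried into the cells by a lentiviral vector that also encodes a green fluorescent protein and puromycin resistance, so that wild-type and mutant U2AF1 were both exogenous. RNA was collected after 96 h. The WT titles carry a prefix that the study also uses for untransfected negative controls, and its methods speak of a vehicle control, so the grouping rests on the wild-type U2AF1 in the titles. The study describes its RNA as 3 mutant and wild-type pairs of independent samples. No label says which libraries form a pair, or whether the 3 samples of a group came from separate transductions or cultures. The p-values measure the spread between these samples, which may be technical.

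Interferons are secreted proteins that bind receptors at the cell surface and activate the kinases JAK1 and TYK2. STAT2 is then phosphorylated and joins IRF9 in the complex ISGF3, which binds the interferon-stimulated response element (ISRE) in the promoters of target genes. Some of these genes, the IFITM genes among them, are also expressed without added interferon in several cell lines. Cell-to-cell differences cannot be seen in bulk RNA, in which fewer cells expressing a gene and less RNA per cell cannot be told apart.

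The values are FPKM, fragments scaled to transcript length and to the mapped fragments of the library. The step between low values of genes with a single exon put the depth at about 20.5 to 26.1 M fragments per library. That step was looked for only within a range of values set in advance, so the depths are approximate. U2AF1, the gene introduced, had 9.24, 9.48 and 9.18 FPKM in the S34F replicates and 8.67, 8.70 and 7.65 FPKM in the WT replicates. The entry U2AF1L5 had 9.44, 9.78 and 9.18 FPKM in S34F and 10.04, 9.32 and 9.22 FPKM in WT. How reads were divided between U2AF1 and U2AF1L5 is not given, and gene-level values do not separate the mutant from the wild-type allele. The level of U2AF1 was therefore no check of the genotype labels. The labelled cell type was compared with marker lists. All 12 erythroid markers averaged at least 1 FPKM, summing to between 10817 and 12230 FPKM in S34F and between 10651 and 11202 FPKM in WT, with the embryonic globin gene HBE1 alone at a mean of 5461 FPKM. Of 12 monocytic markers, 7 had a mean under 1 FPKM, and MPO, FCN1 and S100A8 were at or under the level of 3 fragments in all 6 libraries. The other 5 averaged 46.3 FPKM for CD68, 15.7 for LYZ, 10.6 for SPI1, 2.44 for CD33 and 2.42 for ITGAM. The abundant erythroid genes go against a monocytic line. The 7 monocytic genes under 1 FPKM add little to this, because most genes were under that level. Of all 31142 genes, 10942 averaged at least 1 FPKM. The other 5 monocytic genes were expressed, each above 74% to 97% of all genes. The study also worked with a second line, K562, from chronic myelogenous leukemia, while the titles name SKM-1 for all 6 libraries. The identity of the cells was not tested further. The monocytic sum ran from 57.2 to 83.3 FPKM in S34F and from 79.5 to 98.6 FPKM in WT, and its part in the results below was not tested. S34F replicate 3 stood apart from the other libraries, with a mean Pearson correlation of 0.9608 with the other 5 over 10942 genes against 0.9746 to 0.9777 for the rest. Results are therefore given with and without it.

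Promoter sequences are shown first, because the ISRE is the element that ISGF3 binds in the promoters of interferon target genes. Windows from 250 bases before to 50 bases after the RefSeq transcription start were available for 7 of the 9 genes on GRCh38.p14. The ISRE core, GAAA followed by any 2 bases and GAAA again, searched on both strands, was found in 5 of these 7 genes, IFITM1, IFITM3, ISG15, IFI6 and IFI27, against 3.57% of all 35116 windows. STAT2 and IRF9 had no match in this window. A match is a description of the letters and was not tested as a binding site. The stretch from 170 bases before to 10 bases after the start is printed for the 5 genes with matches, 5′ to 3′ on the strand of the gene, with the matches in capitals. The stretches lie at chr11:313870-314049 on the plus strand, chr11:320851-321030 on the minus strand, chr1:1013327-1013506 on the plus strand, chr1:27672183-27672362 on the minus strand and chr14:94110566-94110745 on the plus strand.
IFITM1: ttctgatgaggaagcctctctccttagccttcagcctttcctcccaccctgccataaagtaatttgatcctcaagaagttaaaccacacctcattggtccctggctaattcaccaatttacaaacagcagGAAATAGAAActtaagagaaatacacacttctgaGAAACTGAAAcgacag
IFITM3: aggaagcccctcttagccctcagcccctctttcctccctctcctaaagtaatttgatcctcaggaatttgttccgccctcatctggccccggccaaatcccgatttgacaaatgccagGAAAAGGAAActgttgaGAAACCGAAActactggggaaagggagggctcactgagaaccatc
ISG15: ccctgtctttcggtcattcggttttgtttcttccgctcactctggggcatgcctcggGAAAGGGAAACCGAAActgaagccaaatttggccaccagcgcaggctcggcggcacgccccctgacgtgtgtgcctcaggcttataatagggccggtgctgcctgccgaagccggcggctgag
IFI6: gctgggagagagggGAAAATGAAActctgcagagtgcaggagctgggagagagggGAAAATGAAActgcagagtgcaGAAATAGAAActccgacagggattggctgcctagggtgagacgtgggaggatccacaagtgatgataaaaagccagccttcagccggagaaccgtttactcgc
IFI27: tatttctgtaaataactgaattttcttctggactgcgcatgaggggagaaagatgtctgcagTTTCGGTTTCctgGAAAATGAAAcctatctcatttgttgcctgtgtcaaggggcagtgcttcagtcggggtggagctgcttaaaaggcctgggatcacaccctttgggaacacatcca
IFI6 held 3 matches and the other 4 genes held 2 each. Those of ISG15 overlapped each other, and the first match of IFI27 lay on the opposite strand. In IFITM1 and IFITM3 the matches were close to the start, beginning 40 and 6 bases before it in IFITM1 and 52 and 35 bases before it in IFITM3. In ISG15, IFI6 and IFI27 they began between 93 and 156 bases before the start printed here. IFI27 has a second RefSeq start, from which the same matches lie 187 and 174 bases upstream. The gamma-activated sequence TTCNNNGAA, an element of the response to interferon gamma, was found in 7.66% of all windows and in those of IFITM1, IFI27 and IRF9. In IFITM1 and IFI27 it overlapped an ISRE core.

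Shared sequence limits how far some members can be told apart. In GENCODE 29 on GRCh38, IFITM2 (ENSG00000185201, chromosome 11 from 307631 to 315272, plus strand) spans IFITM1 (ENSG00000185885, chromosome 11 from 313506 to 315272, plus strand), and they share 351 exonic bases. Of the 100-base stretches in IFITM1 transcripts, 27.5% also occurred in transcripts of another gene, nearly all in IFITM2. For IFITM2 the share was 18.2%. IFITM3 (ENSG00000142089, chromosome 11 from 319669 to 327537, minus strand) shared 17.1% of its stretches, mostly with a noncoding transcript on the opposite strand. IRF9 (ENSG00000213928, chromosome 14 from 24161053 to 24166565, plus strand) shared 1838 exonic bases on the same strand with AL136295.5, a protein-coding gene, and 39.1% of its stretches. How the authors assigned reads that fit several genes is not given in the sources used here, so the values of these 4 genes are uncertain to that extent. For ISG15, IFI6, IFI27, STAT2 and IRF7 no 100-base stretch was shared.

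The members spanned a wide range of levels. IFITM1 was the most abundant, with a mean of 194.6 FPKM over the 6 libraries (SD 53.7), above 99.3% of the genes in the table. It was followed by IFITM3 at 107.5 FPKM, IFITM2 at 20.1, ISG15 at 17.5, STAT2 at 5.12, IFI6 at 4.84, IFI27 at 1.31, IRF7 at 1.06 and IRF9 at 0.605 FPKM. The range of IFITM1 over the libraries overlapped that of IFITM3, although IFITM1 was higher in 6 of 6 libraries. IFITM2 and ISG15, STAT2 and IFI6, and IFI27 and IRF7 were neighbours whose order held in 4 of 6 libraries each. The steps from IFITM3 to IFITM2, from ISG15 to STAT2, from IFI6 to IFI27 and from IRF7 to IRF9 had ranges that did not overlap.

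**Figure D1:**
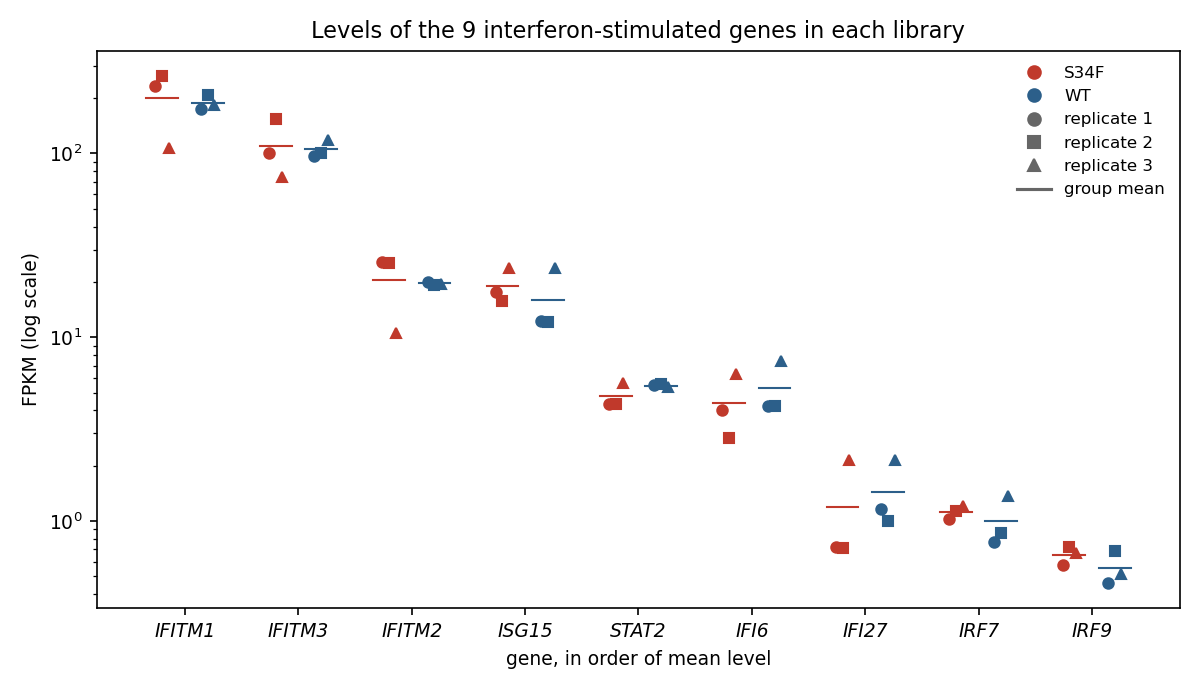
FPKM of the 9 genes (logarithmic axis) in each of the 6 libraries, S34F in red and WT in blue, with the replicate number given by the symbol and the group mean by the bar. IFITM1 lies highest, at 107.6 to 263.5 FPKM, and the S34F and WT libraries overlap for each of the 9 genes.

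The IFITM proteins sit in cell membranes and restrict the entry of enveloped viruses. IFITM1 had 231.9, 263.5 and 107.6 FPKM in S34F replicates 1, 2 and 3 and 174.4, 206.9 and 183.1 FPKM in WT replicates 1, 2 and 3. S34F replicates 1 and 2 were above all 3 WT libraries, and S34F replicate 3 was below them. The means ± SD over 3 libraries each were 201.0 ± 82.4 FPKM for S34F and 188.1 ± 16.8 FPKM for WT, and the log2 fold change of S34F over WT came to -0.0015 on the log2(FPKM + 1) scale (standard error, SE, 0.32, limma adjusted p = 1.00, 0.996 before Benjamini-Hochberg adjustment). IFITM2 had 25.8, 25.5 and 10.6 FPKM in S34F and 20.1, 19.3 and 19.5 FPKM in WT. The same pattern appeared, with S34F replicates 1 and 2 above the WT libraries and S34F replicate 3 below them. Its log2 fold change was -0.03 (SE 0.32, limma adjusted p = 1.00, 0.923 before adjustment). IFITM3 had 100.3, 154.1 and 74.2 FPKM in S34F and 97.4, 100.1 and 118.8 FPKM in WT. Only S34F replicate 2 lay above all WT libraries and only S34F replicate 3 below them. Its log2 fold change was -0.0044 (SE 0.26, limma adjusted p = 1.00, 0.987 before adjustment). The 3 genes summed to 358.0, 443.1 and 192.3 FPKM in S34F and to 291.8, 326.3 and 321.4 FPKM in WT, and IFITM1 made up 55.9% to 64.8% of this sum in each library.

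ISG15 (ENSG00000187608, chromosome 1 from 1001138 to 1014540, plus strand) encodes a ubiquitin-like protein that is attached to other proteins after interferon treatment. It had 17.5, 15.7 and 23.9 FPKM in S34F and 12.2, 12.1 and 23.7 FPKM in WT. Replicate 3 was the highest of each group, at nearly the same level in S34F and WT, and S34F replicates 1 and 2 were above WT replicates 1 and 2. The means ± SD over 3 libraries each were 19.0 ± 4.31 FPKM for S34F and 16.0 ± 6.67 FPKM for WT, and the log2 fold change was 0.28 (SE 0.28, limma adjusted p = 1.00, 0.347 before adjustment). IFI6 (ENSG00000126709, chromosome 1 from 27666061 to 27672218, minus strand), which encodes a membrane protein with antiapoptotic activity, had 4.01, 2.81 and 6.29 FPKM in S34F and 4.25, 4.20 and 7.47 FPKM in WT. IFI27 (ENSG00000165949, chromosome 14 from 94104836 to 94116698, plus strand), a related small membrane protein gene, had 0.724, 0.715 and 2.13 FPKM in S34F and 1.16, 0.997 and 2.15 FPKM in WT. For IFI6 and IFI27 too, replicate 3 was the highest library of each group, and within each replicate number the S34F library was the lower. The log2 fold changes were -0.24 for IFI6 (SE 0.29, limma adjusted p = 1.00, 0.426 before adjustment) and -0.18 for IFI27 (SE 0.29, limma adjusted p = 1.00, 0.54 before adjustment).

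STAT2 (ENSG00000170581, chromosome 12 from 56341597 to 56360155, minus strand), the subunit particular to type I and III interferon signaling, had 4.35, 4.34 and 5.66 FPKM in S34F and 5.49, 5.55 and 5.34 FPKM in WT. S34F replicates 1 and 2 lay below the WT libraries and S34F replicate 3 above them. The log2 fold change was -0.17 (SE 0.12, limma adjusted p = 1.00, 0.215 before adjustment), the smallest p among the members. IRF7 (ENSG00000185507, chromosome 11 from 612553 to 615999, minus strand), a factor that drives interferon alpha genes, had 1.03, 1.13 and 1.20 FPKM in S34F and 0.767, 0.860 and 1.38 FPKM in WT. The S34F libraries lay between the WT libraries, and the log2 fold change was 0.10 (SE 0.14, limma adjusted p = 1.00, 0.511 before adjustment). IRF9, the DNA-binding subunit of ISGF3, had 0.574, 0.719 and 0.673 FPKM in S34F and 0.463, 0.690 and 0.513 FPKM in WT. Its values overlapped between the groups, it was above the level of 3 fragments (0.0386 FPKM) in all libraries, and its mean under 1 FPKM left it out of the test. In a fit without that filter, in which 2.9% of 31142 genes had an unadjusted p under 0.05 (1.04% higher and 1.87% lower), its log2 fold change was 0.09 (SE 0.10, limma adjusted p = 0.999, 0.4 before adjustment).

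Of the 9 members, 8 passed the filter of a mean of at least 1 FPKM and were tested. Of the 8, 0 had an unadjusted p under 0.05, against 2.39% of the 10942 genes tested (0.823% higher and 1.57% lower in S34F), and 0 had an adjusted p under 0.05 from limma, as had 0 of all genes. None of the 9 had groups that did not overlap, against 7.38% of all genes tested (3.66% higher and 3.73% lower). The median log2 fold change of the 8 was -0.02, against 0.01 over all genes. The exact permutation test of 3 against 3 libraries, two-sided, cannot give a p under 0.1, and it gave p between 0.3 and 1 for the members. These libraries left wide intervals around the differences. The 95% interval from limma ran from -0.77 to 0.76 for IFITM1, from -0.61 to 0.60 for IFITM3, from -0.38 to 0.95 for ISG15 and from -0.46 to 0.12 for STAT2.

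For several members, replicate 3 lay apart from replicates 1 and 2. S34F replicate 3 was lower than the mean of S34F replicates 1 and 2 by 1.19 for IFITM1, 1.21 for IFITM2 and 0.74 for IFITM3 on the log2(FPKM + 1) scale, while the 5th percentile of all genes tested was -0.73. In WT the same difference was -0.05, -0.01 and 0.26. For ISG15, IFI6 and IFI27, replicate 3 was higher in both groups. The difference was 0.50, 0.74 and 0.87 in S34F and 0.91, 0.70 and 0.60 in WT, with 95th percentiles over all genes of 0.77 in S34F and 0.48 in WT. Of the 8 members tested, 4 had their highest library at replicate 3 in both groups, ISG15, IFI6, IFI27 and IRF7, against 21.3% of all genes tested, and 0 had their lowest there in both, against 29.4%. Among 37 further pathway genes tested, 18 were highest in replicate 3 of both groups, or 48.6%, and 3 were lowest. What set replicate 3 apart is not in the labels and was not tested.

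**Figure D2:**
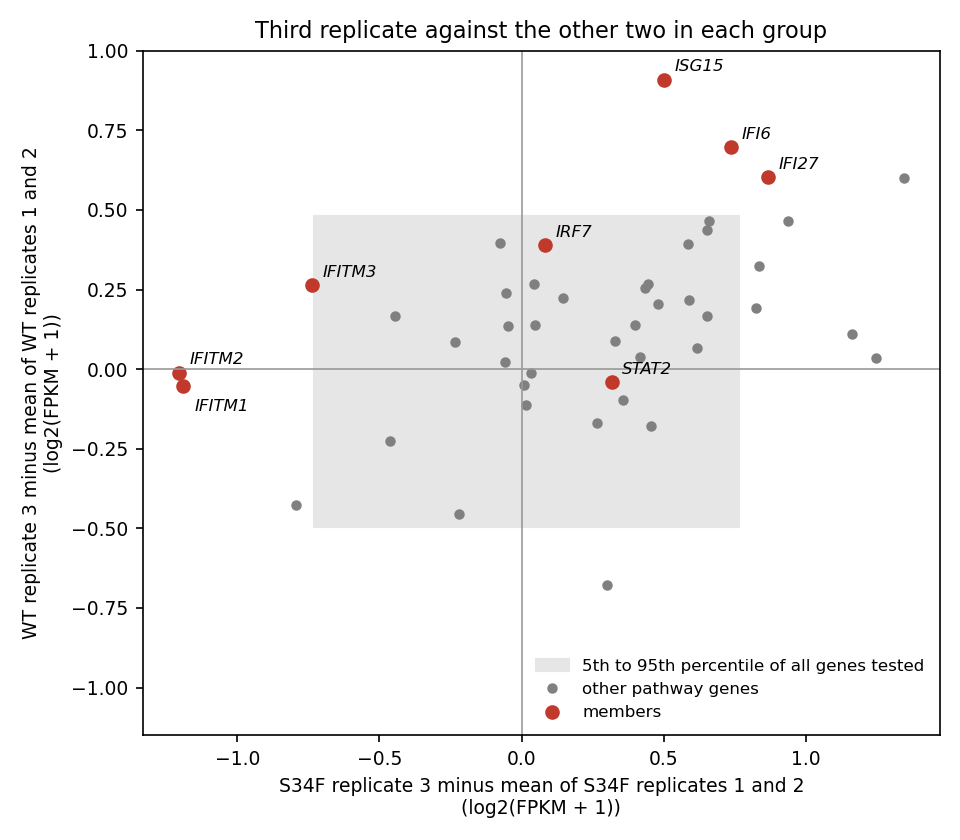
Difference on the log2(FPKM + 1) scale between replicate 3 and the mean of replicates 1 and 2, in S34F (horizontal axis) and in WT (vertical axis), for the 8 members tested (red, named) and 37 other pathway genes (grey), with the 5th to 95th percentile of all genes tested as the shaded area. ISG15, IFI6 and IFI27 are positive in both groups, and IFITM1 and IFITM2 lie at -1.19 and -1.21 in S34F and near 0 in WT.

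Without S34F replicate 3, 3 of the 8 members had an unadjusted p under 0.05, where 10.6% of all genes did, 5.26% higher and 5.34% lower. IFITM1 and IFITM2 were then higher in S34F, with log2 fold changes of 0.40 (SE 0.10, limma adjusted p = 0.314, 0.0108 before adjustment) and 0.37 (SE 0.07, limma adjusted p = 0.241, 0.00257 before adjustment). STAT2 was lower, with -0.27 (SE 0.08, limma adjusted p = 0.335, 0.0132 before adjustment). Without WT replicate 3, ISG15 alone of the 8 had an unadjusted p under 0.05, with a log2 fold change of 0.59 (SE 0.19, limma adjusted p = 1.00, 0.0259 before adjustment), where 3.19% of all genes did, 1.25% higher and 1.94% lower. The fit without replicate 3 of each group left 2 libraries against 2. It was chosen after seeing the data, so its counts are a description only. In it, 5 of the 8 members had an unadjusted p under 0.05, against 16.9% of all genes. IFITM1, IFITM2 and ISG15 were higher in S34F by 0.38, 0.37 and 0.42 on the log2 scale, and IFI27 and STAT2 were lower, with -0.27 and -0.29. Their adjusted p from limma ran from 0.125 to 0.252, so that 0 members passed the adjusted threshold in this fit as well. With the replicate number as a block, 0 of the 8 members had an unadjusted p under 0.05. ISG15 was higher in S34F at 3 of 3 replicate numbers, in replicate 3 only at 23.9 against 23.7 FPKM. Its unadjusted p was 0.0706 and its adjusted p 0.994 from limma. IFI6 was lower in S34F at 3 of 3, with 0.089 and 0.994, and so was IFI27, with 0.161 and 0.994. IRF9, which was not in this fit, was higher at 3 of 3. How many of all genes kept 1 direction at all 3 numbers was not counted.

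**Figure D3:**
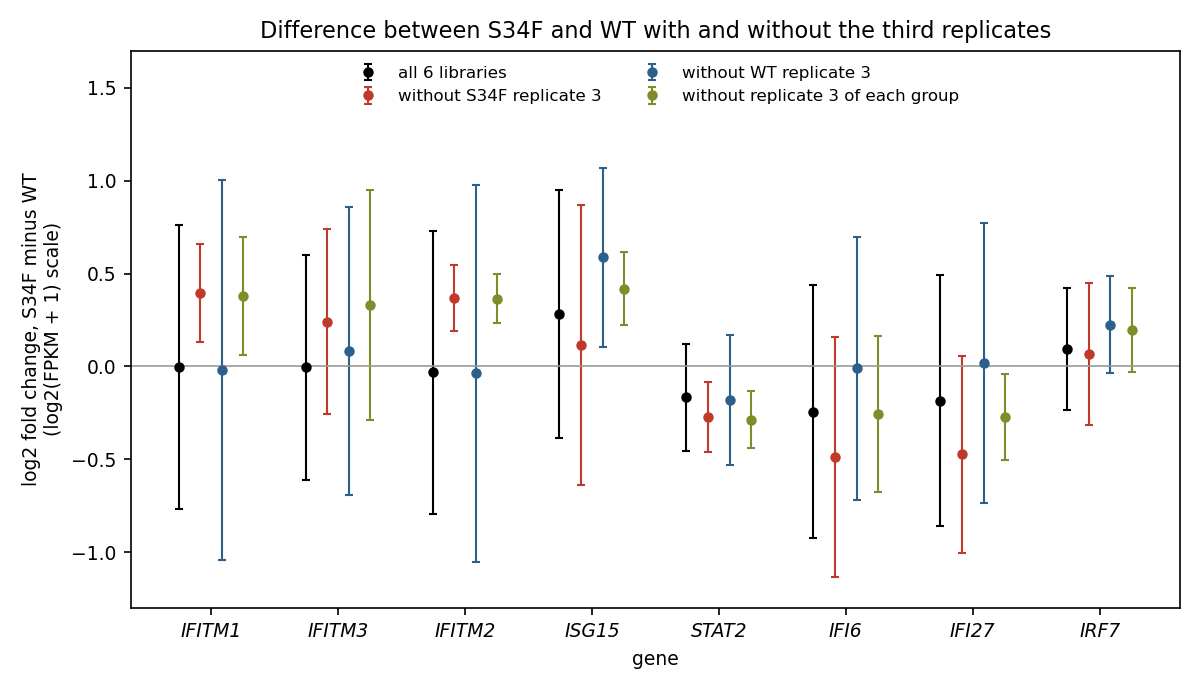
Log2 fold change of S34F against WT on the log2(FPKM + 1) scale with its 95% interval from limma for the 8 members tested, from all 6 libraries (black), without S34F replicate 3 (red), without WT replicate 3 (blue) and without replicate 3 of each group (green). The intervals from all 6 libraries include 0 for all 8 genes, and those without replicate 3 of each group lie on one side of 0 for IFITM1, IFITM2, ISG15, IFI27 and STAT2. The fit without replicate 3 of each group was chosen after seeing the data.

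The rest of the interferon pathway was read from a list of 91 genes ordered by role, of which 76 had values in the table and 37 passed the filter. Of the 12 interferon genes listed, 11 had no values among those analysed here, and IFNL1 was at or under the level of 3 fragments in all libraries. Of the 8 receptor and kinase genes with values, all 8 were tested, and 0 had an unadjusted p under 0.05. The kinase gene TYK2 was the most abundant of them, with 9.38, 9.19 and 9.51 FPKM in S34F and 10.9, 10.3 and 10.5 FPKM in WT. The S34F libraries were below the WT libraries without overlap, and the log2 fold change was -0.16 (SE 0.09, limma adjusted p = 1.00, 0.129 before adjustment). IFNGR2, a subunit of the interferon gamma receptor, averaged 7.15 FPKM. Among the transcription factor genes, IRF3 averaged 11.1 FPKM, while IRF5 and IRF8 had means under 1 FPKM.

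The sensors and adaptors start interferon production when foreign or misplaced nucleic acid is found. Of the 10 with values, 5 were tested, and all 5 had negative log2 fold changes, from -0.44 in TMEM173 to -0.039 in TBK1, where 4969 of all 10942 genes did. IKBKE, a kinase that activates IRF3 and IRF7, was the single gene of the 37 with an unadjusted p under 0.05, or 1 of 37 against 2.39% of all genes. It had 1.30, 1.46 and 1.02 FPKM in S34F and 1.54, 2.02 and 1.94 FPKM in WT, so that the groups did not overlap. Without S34F replicate 1 or 3 or WT replicate 2 or 3 its p was no longer under 0.05. Its log2 fold change was -0.33 (SE 0.13, limma adjusted p = 1.00, 0.0357 before adjustment). MAVS, the mitochondrial adaptor of the RNA sensors, had 10.6, 10.4 and 10.6 FPKM in S34F against 12.2, 11.7 and 11.5 FPKM in WT, also without overlap, at an unadjusted p of 0.156 and an adjusted p of 1.00 from limma. TMEM173, which encodes the DNA-sensing adaptor STING, had 9.93, 8.64 and 4.92 FPKM in S34F and 11.7, 11.9 and 8.55 FPKM in WT. Its log2 fold change was -0.44, with an unadjusted p of 0.12 and an adjusted p of 1.00 from limma. The RNA sensors DDX58 and IFIH1 and the DNA sensor CGAS had means under 1 FPKM. Among the negative regulators, SOCS1, an inhibitor of JAK kinases, had 2.44, 2.03 and 2.97 FPKM in S34F and 4.66, 4.22 and 2.40 FPKM in WT, with a log2 fold change of -0.43 (SE 0.22, limma adjusted p = 1.00, 0.0883 before adjustment). Without WT replicate 3 it was -0.65 (SE 0.15, limma adjusted p = 1.00, 0.00611 before adjustment). SOCS1 was the single pathway gene with an unadjusted p under 0.05 in that fit, where 3.19% of all genes had one. Without replicate 3 of each group it was -0.75 (SE 0.10, limma adjusted p = 0.119, 0.00156 before adjustment). That fit was chosen after seeing the data, and 16.9% of all genes had an unadjusted p under 0.05 in it. In no other setting was the unadjusted p of SOCS1 under 0.05, so its fall rests on leaving out WT replicate 3. PTPN2, a phosphatase of the same pathway, was above WT in S34F without overlap, at means of 1.93 and 1.67 FPKM. Its lowest S34F value was 1.861 FPKM and its highest WT value 1.834 FPKM. The log2 fold change was 0.14 (SE 0.10, limma adjusted p = 0.9999, 0.227 before adjustment).

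The effector genes ran from a few abundant ones to many under 1 FPKM. BST2, which tethers budding viruses to the cell, had a higher mean than IFITM1, with 238.6, 236.9 and 225.7 FPKM in S34F and 224.3, 223.6 and 294.9 FPKM in WT. ADAR, an RNA editing enzyme, averaged 18.0 FPKM, and IFI30, a lysosomal thiol reductase, 21.0 FPKM. In these roles, 13 of 19 antiviral effector genes and 12 of 20 other interferon-stimulated genes had means under 1 FPKM. These shares are near that of the whole table, in which 10942 of 31142 genes averaged at least 1 FPKM. MX1 and OAS1, which are standard markers of an interferon response, averaged 0.0104 and 0.0117 FPKM. XAF1, IFI44 and IFI44L were at or under the level of 3 fragments in all 6 libraries. IFIT3 averaged 2.04 FPKM, with 1.10, 1.05 and 4.27 FPKM in S34F and 1.53, 1.48 and 2.79 FPKM in WT, so that replicate 3 was the highest of each group here too. UBE2L6, the conjugating enzyme for ISG15, was also highest in replicate 3 of each group, with 10.8, 9.82 and 20.6 FPKM in S34F and 13.0, 13.5 and 18.6 FPKM in WT. The other enzymes of ISG15 conjugation, UBA7, HERC5 and USP18, had means under 1 FPKM. UBA7 had 0.654, 0.544 and 0.99 FPKM in S34F and 1.03, 1.26 and 1.355 FPKM in WT, without overlap. In the fit without a filter its log2 fold change was -0.36 (SE 0.14, limma adjusted p = 0.999, 0.0413 before adjustment). In that fit 2.9% of 31142 genes had an unadjusted p under 0.05, 1.04% higher and 1.87% lower in S34F. Of the relatives of the members, IFI27L1 averaged 9.33 FPKM and IFITM10 0.413 FPKM.

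**Figure D4:**
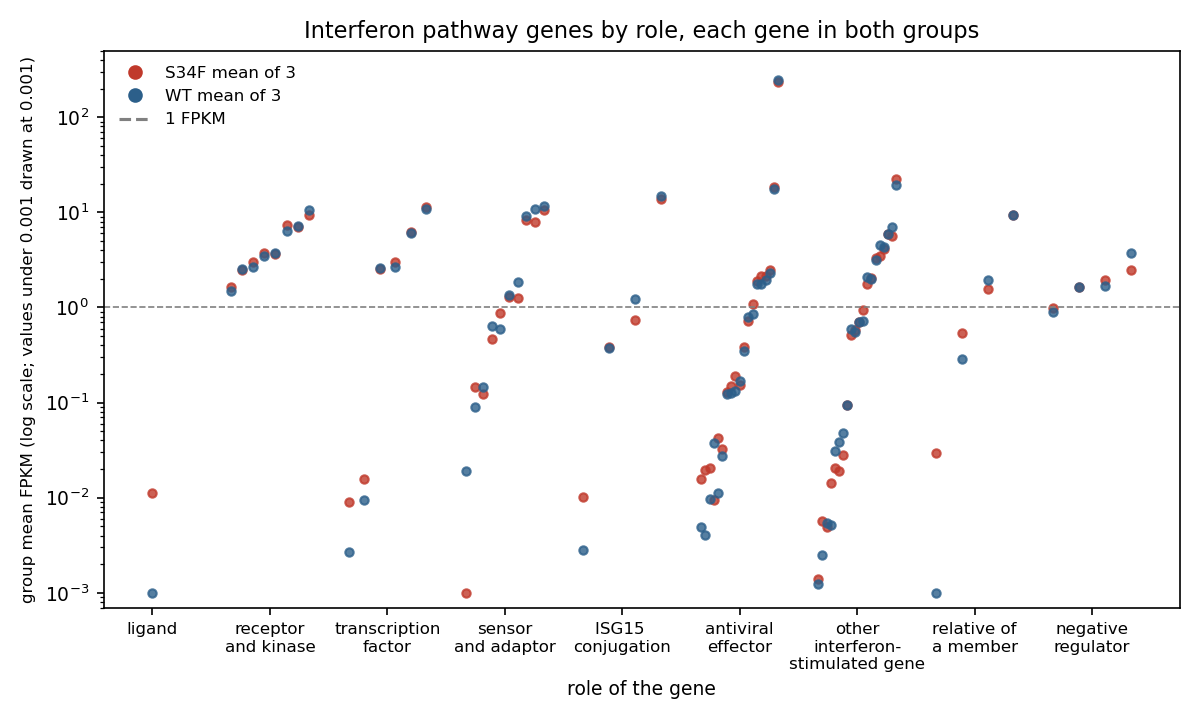
Group mean FPKM (logarithmic axis) of the 76 pathway genes with values, by role, with the mean of the 3 S34F libraries in red and of the 3 WT libraries in blue, and 1 FPKM as a dashed line. Most antiviral effector genes lie below the line while BST2 lies far above it, at a mean of 240.7 FPKM over all libraries.

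Over the 37 pathway genes tested, 15 log2 fold changes were positive and 22 negative, with a median of -0.03 against 0.01 over all genes, and 0 had an adjusted p under 0.05 from limma. With 1 library left out the pathway median ran from -0.16 without S34F replicate 3 to 0.06 without S34F replicate 2, and it was positive without S34F replicate 1, S34F replicate 2 or WT replicate 3. Without replicate 3 of each group it was -0.12. Groups did not overlap for 4 of the 37, 1 higher and 3 lower in S34F, against 7.38% of all genes. With the replicate number as a block, 4 of the 37 had an unadjusted p under 0.05, TMEM173, IKBKE, IFI35 and LGALS3BP, all lower in S34F, where 4.05% of all genes did, 1.59% higher and 2.46% lower. Without S34F replicate 3, 7 of the 37 had an unadjusted p under 0.05, 6 lower and 1 higher, where 10.6% of all genes did. Without replicate 3 of each group it was 13 of the 37, 12 lower and 1 higher, where 16.9% of all genes did, with 8.71% lower and 8.16% higher. The gene that was higher in both of these fits was IFI30.

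Genes with the ISRE core in the promoter window ranged from abundant to scarce. Of the 65 members and pathway genes with both a promoter window and values, 29 held the core. Of these, 13 averaged 1 FPKM or more, and the 29 ranged from 0.00412 FPKM in IFI44L to 241 FPKM in BST2, with a median of 0.832 FPKM. Of the 36 without it, 23 had a mean of at least 1 FPKM, with a median of 1.77 FPKM. As a description over the 6 libraries, the 3 genes whose log2(FPKM + 1) followed the mean of IFITM1, IFITM2 and IFITM3 most closely were CYP2F2P, SSX1 and RARA-AS1, with Pearson's r of 0.992, 0.992 and 0.989. The points share the libraries and the low S34F replicate 3, and the 3 genes are the closest among the 10942 tested.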

How the data were processed

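RNA was sequenced from 6 samples, 3 S34F and 3 WT, grouped by their titles. The authors deposited 1 table of FPKM per gene and library, not read counts. The submitters' processing notes name StringTie and edgeR without their roles. The aligner, genome build and annotation are not given in the sources used here. The authors' fold changes, p-values and q-values in the same table were not used, and 0 columns of per-sample values were left out. The members and gene lists were chosen with earlier results of these data known.

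Genes with a mean of at least 1 FPKM were kept, and log2(FPKM + 1) was compared between the groups with limma 3.58.1 in R 4.3.3, with a mean-variance trend, no block and Benjamini-Hochberg adjustment over 10942 genes. Fold changes on this scale understate those of low genes. The analysis used Python 3.11.15 and pandas 2.3.3. Named genes were all members, listed genes at an unadjusted p under 0.05, the most abundant genes of each role, and the 3 genes most like the IFITM mean. Any further gene was picked once its values were known. Coordinates come from GENCODE 29, which holds 31002 of the 31142 identifiers, and promoters from RefSeq on GRCh38.p14. The level of 3 fragments was computed from the shallowest library over all exons of a gene and covers counting error only.

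Deviations from the group means, correlated across genes, gave 0.212, 0.174 and 0.38 for same-numbered libraries, so the comparison was repeated with a block for replicate number. The study speaks of pairs of samples, but no label says which libraries form a pair. Pairing by replicate number is therefore a hint from the data, and S34F replicate 2 and WT replicate 1 also correlated, at 0.197.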

Additional observations from a re-analysis of the deposited data

How the results depend on the processing

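Of the 10942 genes tested, 262 had an unadjusted p under 0.05 and 64 of them a fold change above 1.5. The first count was 904 without a filter and 443 with the replicate block, and the second was 122 with a pseudocount of 0.1. Leaving out 1 library gave 162 (without WT replicate 1) to 1160 (without S34F replicate 3) and 66 to 180, and 0 to 3 genes at an adjusted p under 0.05. Without replicate 3 of each group, chosen after seeing the data, the counts were 1846, 183 and 8. For the members the count of 0 became 0 to 3 with 1 library left out and 5 without replicate 3 of each group. For the pathway list the count of 1 became 2 without a filter, 4 with the replicate block, 0 to 7 with 1 library left out (0 without S34F replicate 1 or WT replicate 2) and 13 without replicate 3 of each group. The block changed no call of a member. Median-ratio scaling and the fit without a trend left the member and pathway counts at 0 and 1 and gave 274 and 263 for all genes.

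The direction turned for IFITM1, IFITM2 and IFITM3 without S34F replicate 3, to 0.40, 0.37 and 0.24, and without replicate 3 of each group, to 0.38, 0.37 and 0.33. It also turned for IFITM1 without WT replicate 2 (0.069), for IFITM3 without S34F replicate 1 (0.026) or WT replicate 3 (0.084) and for IFI27 without WT replicate 3 (0.018). With 1 library left out the ranges were -0.25 to 0.40 for IFITM1, -0.24 to 0.37 for IFITM2, -0.28 to 0.24 for IFITM3, 0.12 to 0.59 for ISG15, -0.49 to -0.011 for IFI6, -0.47 to 0.018 for IFI27, -0.27 to -0.11 for STAT2 and 0.012 to 0.23 for IRF7. The cause was not tested. IRF9 was fitted only without the filter. FPKM carry no counts, and the number of libraries limits the precision.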
